A study of Rattus norvegicus with 4 samples.

Results

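The cell cycle and DNA replication genes described here were 39 listed gene names in 3 groups by role: enzymes and factors of DNA replication and nucleotide supply, genes of mitosis, and the cyclins, kinases and transcription factor of G1 and the G1/S step. The array files carried 37 of the names on 59 probes, 15 of replication, 14 of mitosis and 8 of G1, among 35537 gene names on the array and 25526 genes tested. The brightest probe stood for each gene. All 37 genes passed the filter on dim probes. For 35 of them the signal was well above background in all 8 channels of the 4 arrays; Cdc6 missed the Cy3 channel of 1 untreated array and Kif11 that of 1 endoglin siRNA array. The array files name Aurka by its older name Stk6 and Gins2 as RGD1311055, so both fell outside the list and their values are given separately.

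The cells were rat hepatic stellate cells, the vitamin A storing cells of the liver sinusoid that turn into matrix-producing myofibroblasts in culture and in injury. They had received an siRNA against endoglin, an accessory receptor of the TGF-beta and BMP pathway, or no treatment, and each was set against cells given a control siRNA. Each of the 2 conditions was measured on 2 arrays, 1 with cells of 1 animal and 1 with cells pooled from 3 animals. Cy5 carried the endoglin siRNA or untreated cells and Cy3 the control siRNA cells on every array, with no dye swap. The labels leave unsaid if the 2 single-animal arrays share an animal and if the 2 pooled arrays share a pool. They also leave unsaid if a single animal was in a pool and if arrays shared a control RNA. No strain, sex, age, culture time or time after transfection is given. The labels do not say how many cultures an array stands for, so p-values measure only the spread between these arrays.

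Endoglin itself had log2 ratios to control siRNA of -3.08 and -1.72 in the endoglin siRNA cells of 1 animal and of the pool, against -0.36 and -0.42 in untreated cells. The fitted endoglin siRNA ratio was -2.40 ± 0.26 (SE), with an adjusted p of 0.0052 by limma. The deposited value table gives the untreated arrays with the opposite sign; here every ratio is Cy5 over Cy3, as the dyes in the labels give it. On the untreated array of the pool 93.3% (Cy5) and 87.2% (Cy3) of gene spots were well above background. On the other arrays 61.9% to 70.2% were in each channel, and 0 probes were saturated on any array. Of 13 stellate cell and fibroblast markers 12 were measured, among them desmin, vimentin, Cygb and Reln. The stellate marker not measured was Acta2. Of 13 Kupffer cell and macrophage markers 11 were measured. Albumin, a defining hepatocyte gene, was not among the 9 of 11 hepatocyte markers measured.

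Cells commit to division when cyclin D and cyclin E kinases release E2F transcription factors from the retinoblastoma family, and E2F sites then turn on the genes that make nucleotides and copy DNA. The mitotic genes are switched on later, through a CHR element and CCAAT boxes bound by the MuvB, B-Myb, FoxM1 and NF-Y factors. Quiescent stellate cells in healthy liver rarely divide, while activated ones proliferate, so both gene groups are widely used as signs of cycling in this cell type.

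Replication and mitotic genes differed in how their levels varied with the source of the RNA. Of 14 mitotic genes, 11 were at least 2-fold higher in 1 animal than in the pool in all 4 like-for-like comparisons (endoglin siRNA cells, untreated cells, and the control siRNA cells of each kind of array), where 1.19% of all genes were. Of 15 replication genes 0 were. The median difference in level, 1 animal minus pool, was 1.57 on the log2 scale for mitotic genes, -0.15 for replication genes and -0.50 for G1 genes, against 0.03 for all genes. The labels do not say if the pooled arrays share a preparation, so these differences have no known donor replicate and were not tested. Levels are normalized intensities on the array's scale and are compared within a probe only. The Cy5 and Cy3 channels of an array were scaled together, so the 4 comparisons are not independent of each other. In bulk RNA, more cells of a kind and more RNA per cell cannot be told apart.

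Ccnb1, cyclin B1, the partner of Cdk1 that drives entry into mitosis, had the widest gap among mitotic genes. Its level was 3896 in 1 animal and 724 in the pool for endoglin siRNA cells, and 3521 and 584 for untreated cells. In control siRNA cells it was 2735 and 657 on the endoglin siRNA arrays, and 2964 and 652 on the untreated arrays. All 4 single-animal levels thus lay above all 4 pooled levels, with a mean difference of 2.32 on the log2 scale, or 4.98-fold.

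Cdc20, the activator of the anaphase-promoting complex, was 3.79-fold higher in 1 animal, with log2 differences between 1.72 and 2.20 in the 4 comparisons. Cdk1, the kinase that drives mitotic entry, was 3.45-fold higher, its differences lying between 1.63 and 2.05. The B-type cyclin Ccnb2 differed by 1.65 on the log2 scale, the spindle checkpoint kinase Bub1b by 1.64, the cytokinesis kinesin Kif20a by 1.63 and the polo-like kinase Plk1 by 1.62. These genes act at different points from mitotic entry to the separation of daughter cells, and their differences lay close together. The checkpoint kinase Bub1 followed with 1.53, survivin (Birc5), a subunit of the chromosomal passenger complex, with 1.38, Top2a, the topoisomerase that untangles sister chromosomes, with 1.22 and cyclin A2 (Ccna2) with 1.18. Ccna2 was the member just inside the 2-fold rule, with a smallest difference of 1.01. The 3 mitotic genes outside it were Aurkb, the kinase of the passenger complex, at 0.54, the proliferation marker Mki67 at 0.52 and the spindle kinesin Kif11 at 0.48, all of them higher in 1 animal in 4 of 4 comparisons. The levels of these 3 lay between 174 and 563 in the 8 channels. Their differences depended on the scaling. Without disturbed spots they were 0.74 for Aurkb, 0.75 for Mki67 and 0.80 for Kif11. Scaled to the 75th percentile they were 0.90, 0.86 and 1.80. Aurka, the centrosome kinase read under its older name, differed by 1.01, with differences between 0.77 and 1.31.

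**Figure D1:**
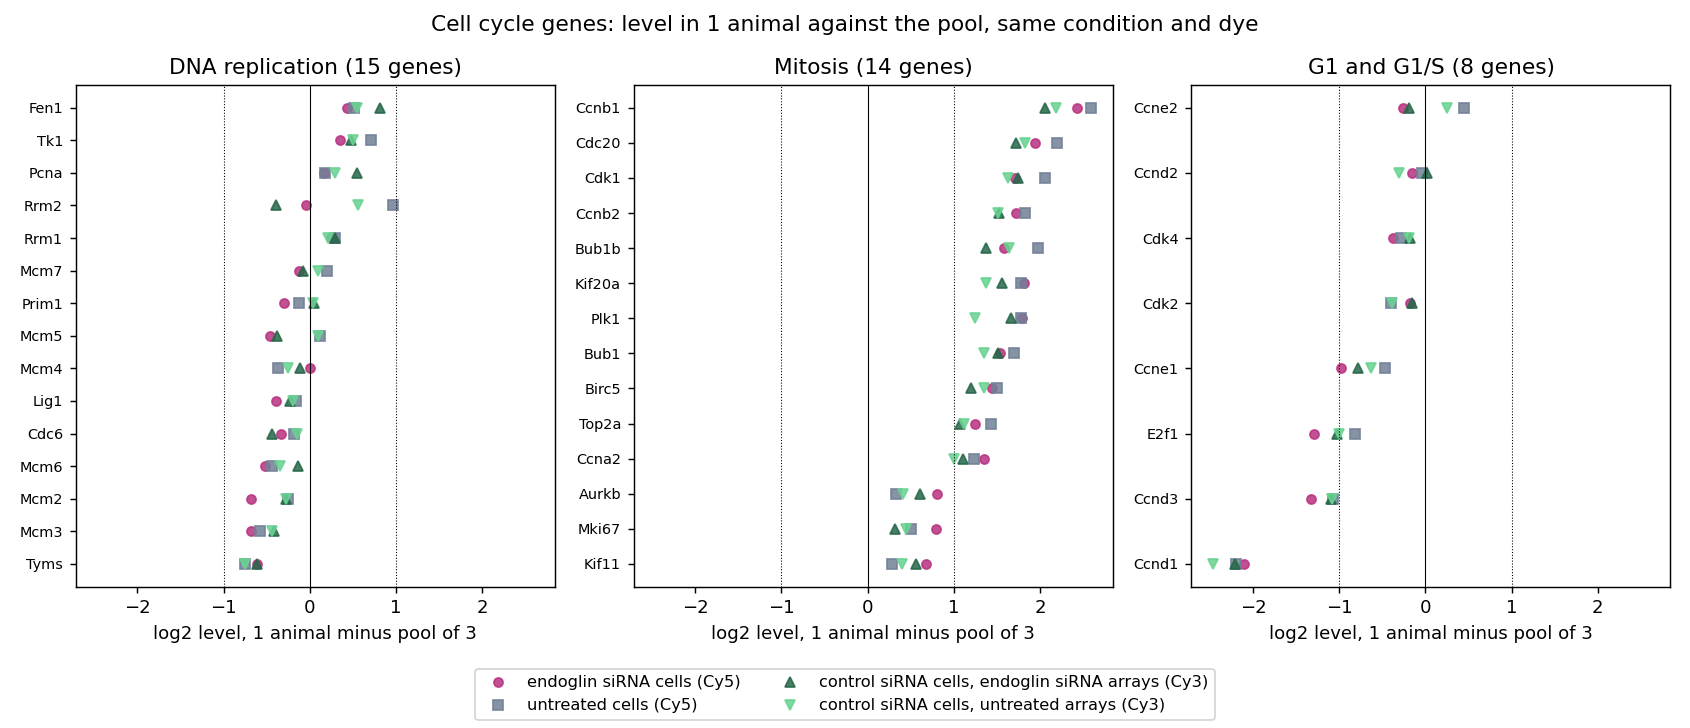
Log2 level in 1 animal minus log2 level in the pool of 3 animals for each of the 37 genes, 1 panel a group, with 1 point for each of the 4 comparisons of the same condition and dye; dotted lines mark 2-fold. In the mitotic panel all points lie above 0 and 11 genes lie wholly above the upper 2-fold line, while replication genes lie on both sides of 0.

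Replication genes did not share this gap. The flap endonuclease Fen1, which trims Okazaki fragments, had the highest difference of the group, 0.58 on the log2 scale, followed by thymidine kinase Tk1 with 0.51. At the other end, thymidylate synthase (Tyms), which makes dTMP, had levels of 828 in 1 animal and 1270 in the pool for endoglin siRNA cells, and 687 and 1153 for untreated cells. Tyms was 1.61-fold lower in 1 animal on average, and lower in 4 of 4 comparisons. The replicative helicase subunit Mcm3 differed by -0.53 and Mcm2 by -0.37. The sliding clamp Pcna, often read as a sign of S phase, differed by 0.29. Of the 15 replication genes, 4 were higher in 1 animal in all 4 comparisons and 6 were lower in all 4. Of all 25526 genes 8014 were higher in all 4 and 5737 lower. The order within the group depended on the scaling. Without disturbed spots Tk1 was at 0.81 and Fen1 at 0.59, with Tyms lowest at -0.80. Scaled to the 75th percentile Tk1 was at 1.0979 and Fen1 at 0.69. On that scaling Cdc6 was lowest at -1.68, followed by Mcm5 at -1.22, with Tyms at -0.85. There 1 of the 15 genes was at least 2-fold lower in all 4 comparisons and 0 were higher.

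Among G1 genes, cyclin D1 (Ccnd1), the growth-factor induced partner of Cdk4, was 4.73-fold lower in 1 animal. Its level was 4099 in 1 animal and 17689 in the pool for endoglin siRNA cells, and 5086 and 23286 for untreated cells. The control siRNA cells of the endoglin siRNA arrays had 4295 and 19836, and those of the untreated arrays 3508 and 19315. Ccnd1 therefore ran opposite to cyclin B1 in every comparison. Cyclin D3 (Ccnd3) was 2.21-fold lower in 1 animal, and these were the 2 G1 genes at least 2-fold lower in all 4 comparisons, where 0.979% of all genes were. E2f1, the activating E2F factor, was 2.05-fold lower on average, with its smallest difference at -0.82, and cyclin E1 (Ccne1), the partner of Cdk2 in S-phase entry, was 1.65-fold lower. Cyclin D2 (Ccnd2), Cdk2, Cdk4 and cyclin E2 (Ccne2) differed by -0.12, -0.28, -0.26 and 0.06.

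Wider lists of the same pathways, chosen from general knowledge, gave the following counts. In 50 further genes of mitosis and cytokinesis 12 were at least 2-fold higher in 1 animal in all 4 comparisons and 0 were lower, where 1.19% of all genes were higher and 0.979% lower, with a median difference of 0.66. That list moved with the scaling: scaled to the 75th percentile the median was 1.15, with 20 of 49 genes higher and 1 lower, and without disturbed spots 0.91, with 17 of 50 higher. Of all genes 2.66% were higher and 4.26% lower on the first of these, and 1.83% higher on the second. In 36 further genes of replication and nucleotide supply 0 were higher and 0 were lower, with a median of 0.02; scaled to the 75th percentile 1 was higher and 1 lower, and without disturbed spots 1 was higher. In 31 inhibitors of cyclin-dependent kinases, pocket proteins, E2F factors and related regulators 3 were higher and 0 lower, with a median of 0.10. Markers of other liver cell types also moved with RNA source. Of 11 Kupffer cell and macrophage markers 4 were at least 2-fold higher in 1 animal in all 4 comparisons, with a median difference of 0.64. On those 2 scalings the macrophage median was 3.12, with 5 of 9 markers higher, and 0.91, with 5 of 11 higher, beside 1.91 and 1.75 for the 14 mitotic genes. The sum of the 11 macrophage probe levels, carried by the brightest probes, was 23089 to 46448 in the 4 channels of 1 animal, against 7751 to 15784 in the pool. The signal of 8 of the 11 was well above background in all 8 channels, and each of the other 3 (Cd163, C1qc and Ptprc) was in 5 to 6 of them. By the same 2-fold rule on the main scale, 2 of 12 stellate cell and fibroblast markers were lower and 0 higher. Of 7 sinusoidal endothelial markers 1 was higher and 0 lower. Of 3 cholangiocyte markers 1 was higher and 1 lower, and of 9 hepatocyte markers 0 were higher and 0 lower. The part of the macrophage RNA in the mitotic difference was not tested.

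**Figure D2:**
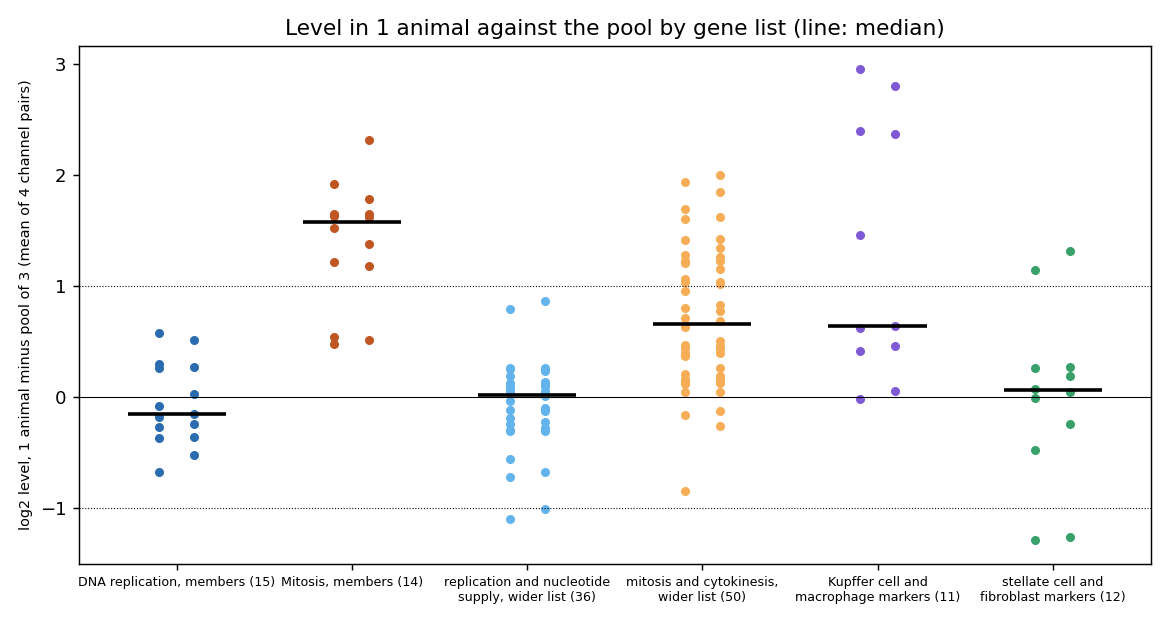
Log2 level in 1 animal minus the pool of 3 animals, as the mean of the 4 comparisons, with 1 point a gene, the number of genes in brackets, a bar at the median of each list and dotted lines at 2-fold. The medians are 1.57 for the 14 mitotic genes and 0.66 for the wider mitotic list, against -0.15 and 0.02 for the replication lists.

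The promoters of the 2 groups differed in the short motifs they held. RefSeq promoter sequences (build GRCr8, 250 bases before to 50 after the start) were at hand for 28 of the 37 genes: 12 of replication, 12 of mitosis and 4 of G1. The E2F core was searched as TTCCCGC or TTCGCGC, and also as TTGGCGC or TTGCCGC, the CHR element as TTTGAA or TTCGAA and the CCAAT box as CCAAT, each on both strands, with overlapping matches counted. An E2F core stood in 10 of 12 replication promoters (83.3%) and 3 of 12 mitotic ones (25%), against 9.52% of 33469 promoters in all. A CHR stood in 8 of 12 mitotic promoters (66.7%) and 3 of 12 replication ones (25%), against 19.7% of all. A CCAAT box stood in 10 of 12 mitotic promoters (83.3%) and 7 of 12 replication ones (58.3%), against 37.5% of all. Both a CHR and a CCAAT box stood in 7 of 12 mitotic promoters (58.3%) and 2 of 12 replication ones (16.7%), against 7.95% of all. A match is a run of letters, not a shown binding site.

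The promoters of 3 replication and 4 mitotic genes are written out here, 5′ to 3′ on the gene's own strand with every match to these 3 motifs in capitals. Tyms, Lig1 and Pcna were the replication genes that rose with endoglin siRNA, and Ccnb1, Cdk1, Ccnb2 and Cdc20 the mitotic genes with the widest gaps between RNA sources.
Tyms (chr9:120776034-120776333, minus strand): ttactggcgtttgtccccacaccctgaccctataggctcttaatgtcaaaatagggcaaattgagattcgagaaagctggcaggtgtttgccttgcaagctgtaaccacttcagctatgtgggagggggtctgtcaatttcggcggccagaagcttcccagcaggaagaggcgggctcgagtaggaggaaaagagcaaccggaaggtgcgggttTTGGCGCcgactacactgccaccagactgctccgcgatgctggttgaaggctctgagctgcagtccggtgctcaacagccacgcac
Lig1 (chr1:83242920-83243219, plus strand): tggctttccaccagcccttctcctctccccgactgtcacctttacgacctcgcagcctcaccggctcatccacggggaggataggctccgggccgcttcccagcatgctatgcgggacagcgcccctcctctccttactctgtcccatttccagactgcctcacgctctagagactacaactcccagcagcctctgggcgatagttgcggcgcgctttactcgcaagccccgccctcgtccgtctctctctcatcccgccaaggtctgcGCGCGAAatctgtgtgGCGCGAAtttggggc
Pcna (chr3:139955771-139956070, minus strand): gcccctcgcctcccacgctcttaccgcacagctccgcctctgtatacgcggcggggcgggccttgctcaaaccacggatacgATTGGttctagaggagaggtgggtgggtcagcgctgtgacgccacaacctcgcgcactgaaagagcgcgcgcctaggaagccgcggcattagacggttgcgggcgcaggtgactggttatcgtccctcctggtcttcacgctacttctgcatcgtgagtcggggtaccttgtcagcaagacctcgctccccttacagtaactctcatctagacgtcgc
Ccnb1 (chr2:33655176-33655475, minus strand): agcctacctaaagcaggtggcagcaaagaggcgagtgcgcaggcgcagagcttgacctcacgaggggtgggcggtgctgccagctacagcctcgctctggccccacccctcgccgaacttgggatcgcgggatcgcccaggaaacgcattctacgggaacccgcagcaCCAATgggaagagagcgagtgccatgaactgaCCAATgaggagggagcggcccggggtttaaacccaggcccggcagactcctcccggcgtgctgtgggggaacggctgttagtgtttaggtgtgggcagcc
Cdk1 (chr20:19265043-19265342, plus strand): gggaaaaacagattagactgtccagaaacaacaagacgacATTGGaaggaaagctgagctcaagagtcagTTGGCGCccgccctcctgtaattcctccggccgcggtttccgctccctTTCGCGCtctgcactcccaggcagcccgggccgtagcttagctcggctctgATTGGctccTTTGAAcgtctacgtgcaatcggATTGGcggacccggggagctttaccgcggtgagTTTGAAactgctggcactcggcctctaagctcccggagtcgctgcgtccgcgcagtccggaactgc
Ccnb2 (chr8:79981609-79981908, minus strand): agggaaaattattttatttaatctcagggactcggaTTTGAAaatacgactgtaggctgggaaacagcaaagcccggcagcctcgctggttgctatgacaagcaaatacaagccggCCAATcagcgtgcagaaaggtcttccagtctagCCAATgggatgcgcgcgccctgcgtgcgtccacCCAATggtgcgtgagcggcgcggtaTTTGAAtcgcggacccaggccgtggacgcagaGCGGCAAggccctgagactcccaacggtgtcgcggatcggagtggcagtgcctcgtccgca
Cdc20 (chr5:137255750-137256049, minus strand): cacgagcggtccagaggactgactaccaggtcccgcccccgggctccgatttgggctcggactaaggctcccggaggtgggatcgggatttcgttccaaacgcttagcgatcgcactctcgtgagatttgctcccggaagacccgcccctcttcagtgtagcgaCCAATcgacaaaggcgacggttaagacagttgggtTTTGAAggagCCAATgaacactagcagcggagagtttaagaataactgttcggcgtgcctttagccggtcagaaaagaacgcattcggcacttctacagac
Tyms holds 1 E2F core, 36 bases before the start, and neither of the other motifs. Lig1 holds 2 E2F cores, both after the start. Pcna holds 0 cores and 1 CCAAT box, and so lacks the motif that most replication promoters here hold. Ccnb1 holds 2 CCAAT boxes and 0 matches to the CHR letters searched, which leave out other forms of the element. A link between motifs and the gap between RNA sources was not tested. Cdk1 holds 2 cores as well as 2 CHR and 3 CCAAT matches, Ccnb2 holds 2 CHR and 3 CCAAT matches and 1 core, and Cdc20 holds 1 CHR with a CCAAT box on either side of it. Cdk1 and Ccnb2 are 2 of the 3 mitotic promoters with an E2F core.

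With endoglin siRNA against control siRNA, 4 of the 37 genes rose and 0 fell by limma at an adjusted p of 0.05, where 5.25% of all genes rose and 2.86% fell. Replication genes accounted for 3 of them (Lig1, Pcna and Tyms) and G1 genes for 1 (E2f1), while 0 of 14 mitotic genes passed. That split depended on the fit. With the RNA source as a block 7 of 15 replication and 8 of 14 mitotic genes passed, where 15.3% of all genes did. Without background correction 4 and 4 passed, where 17.6% did, and without the pooled endoglin siRNA array 0 and 3, where 10.5% did. Including both directions, 8.11% of all genes passed. At an unadjusted p under 0.05 there were 22 of the 37 genes, 21 of them higher, where 23.1% of all genes stood there. The median log2 ratio was 0.20 for replication, 0.29 for mitotic and 0.00 for G1 genes, against 0.02 for all genes. The folds were small, the highest being 1.40-fold.

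DNA ligase 1 (Lig1), which seals Okazaki fragments, had log2 ratios of 0.33 in 1 animal and 0.49 in the pool with endoglin siRNA, against 0.09 and 0.05 in untreated cells. Its fitted endoglin siRNA ratio was 0.41 ± 0.07 (SE), with an adjusted p of 0.0152. Pcna, the clamp that ligase 1 binds, had 0.28 and 0.67 with endoglin siRNA, against 0.19 and 0.30 in untreated cells, and its ratio was 0.48 ± 0.10 (adjusted p = 0.0278). The Pcna ranges of the 2 conditions overlapped, and a second Pcna probe read 0.42 with endoglin siRNA. Tyms had 0.32 and 0.32 with endoglin siRNA, against -0.02 and -0.03 in untreated cells, the closest pair of replicates among the genes that passed (0.32 ± 0.06, adjusted p = 0.0219). E2f1 had 0.35 and 0.62 with endoglin siRNA, against 0.18 and -0.0021 in untreated cells (0.48 ± 0.08, adjusted p = 0.0185). A second, dimmer E2f1 probe read -0.08 and -0.02, so the 2 E2f1 probes disagreed. On the mean over probes E2f1 no longer passed, with 0.21 and an adjusted p of 0.145. Without the pooled endoglin siRNA array none of the 4 genes passed (adjusted p of 0.0906 for Pcna, 0.0571 for Tyms, 0.0518 for Lig1 and 0.0629 for E2f1), and Tyms, with 0.0571 to 0.0936, failed without any 1 of the 4 arrays. Under 4 other ways of normalizing or reading the ratios 0 genes of the whole array passed.

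The remaining replication genes did not pass. Rrm2, the small subunit of ribonucleotide reductase, had ratios of 0.50 in 1 animal and 0.16 in the pool with endoglin siRNA, against 0.17 and -0.24 in untreated cells. Fen1 had 0.14 and 0.52, against -0.07 and -0.03, though its dimmer second probe averaged -0.05 with endoglin siRNA. Mcm3 had 0.18 and 0.44, against 0.03 and 0.17, with an adjusted p of 0.0632, the nearest in the group. A second, dimmer Mcm3 probe averaged 0.02, and on the mean over probes Mcm3 had 0.16 (adjusted p = 0.204). The primase subunit Prim1, which starts new strands, had 0.07 and 0.42, against -0.10 and 0.06. Mcm7 and the large reductase subunit Rrm1 each averaged 0.20, while the 2 dimmer Rrm1 probes averaged -0.10 and 0.01. Of the 37 genes 19 had more than 1 kept probe, and for 5 of the 19 the probes differed in sign. The licensing factor Cdc6 and Mcm4 averaged 0.09, Mcm2 0.06, Mcm6 0.05, Mcm5 -0.02 and Tk1 -0.05. The 6 Mcm helicase subunits, which act as 1 ring, thus ranged from -0.02 to 0.31 with 0 of 6 passing. Gins2, a subunit of the GINS part of the helicase read under its older name, averaged 0.00.

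All 14 mitotic genes had a positive fitted ratio with endoglin siRNA, from 0.07 to 0.35, and 13 were above 0 on both arrays. Over all 37 genes 27 were above 0 on both arrays, where 42.1% of all genes were, and 2 were below 0 on both, where 27.4% were. The count of positive ratios was 14 of 14 under 12 of 13 other settings and 13 without the single-animal endoglin siRNA array. Leaving out an untreated array or adding the RNA source as a block cannot change these ratios, so those settings are no check. Dropping the filter on dim probes left the same ratios, as all members had passed it, and is no check either. The deposited value table repeats the scanner's own log ratios. None of the 14 passed the adjusted threshold, while 10 had an unadjusted p under 0.05. The 8 that passed with the RNA source as a block were Top2a, Ccna2, Ccnb1, Cdc20, Bub1, Bub1b, Birc5 and Kif20a, and the 3 that passed without the pooled endoglin siRNA array were Ccna2, Birc5 and Mki67. Ccna2 lay nearest, with 0.48 in 1 animal and 0.23 in the pool, against 0.08 and -0.15 in untreated cells, and an adjusted p of 0.0512. Birc5 had 0.43 and 0.19, against 0.14 and -0.01 (adjusted p = 0.0587). Bub1 had 0.33 and 0.30, against 0.15 and -0.19 (adjusted p = 0.0748), and Cdc20 had 0.46 and 0.23, against 0.20 and -0.17 (adjusted p = 0.0831). In each of these 4 genes both endoglin siRNA ratios lay above both untreated ratios. Kif20a, Ccnb1 and Bub1b averaged 0.34, 0.33 and 0.29, Cdk1 0.29 and Mki67 0.27, with Mki67 at 0.51 in 1 animal and 0.03 in the pool. Top2a, Plk1, Ccnb2, Aurkb and Kif11 averaged 0.23, 0.18, 0.12, 0.09 and 0.07. Aurka averaged 0.11.

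Of the other G1 genes none passed. Cdk2, the kinase of cyclins E and A, had 0.17 and 0.20 with endoglin siRNA, against -0.20 and -0.18 in untreated cells. Its second, dimmer probe read 0.01 and -0.0013, against -0.23 and 0.01. Ccnd2 was below control siRNA on all 4 arrays, with -0.36 and -0.19 for endoglin siRNA, against -0.18 and -0.45 for untreated cells. Ccnd1 had -0.07 and -0.17 with endoglin siRNA, against 0.54 and 0.27 in untreated cells. Ccne2, Ccnd3, Cdk4 and Ccne1 averaged 0.12, 0.01, -0.01 and -0.04 with endoglin siRNA.

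**Figure D3:**
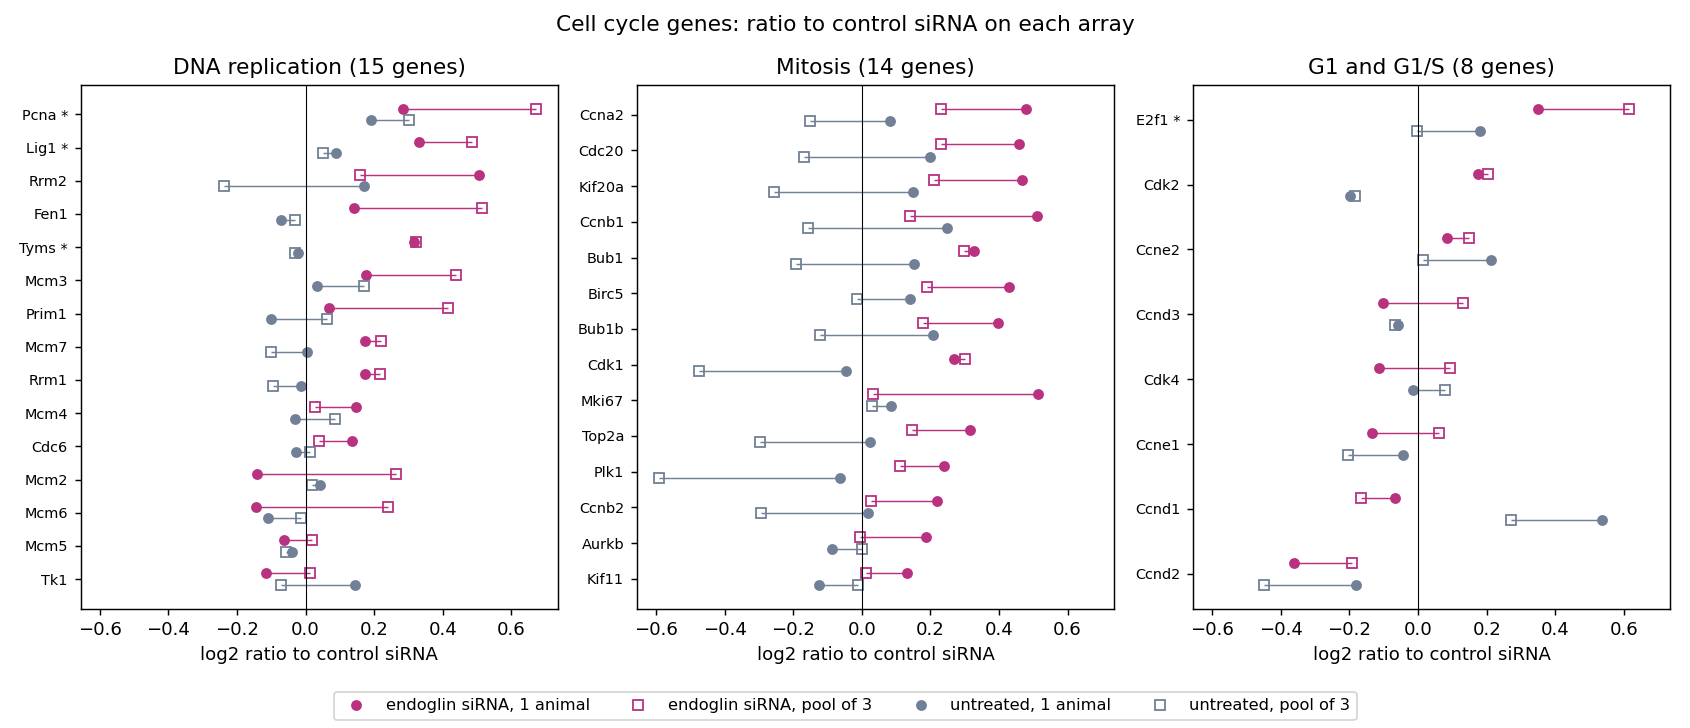
Log2 ratio to control siRNA of each of the 37 genes on the 4 arrays, in 1 panel a group, with endoglin siRNA arrays above untreated arrays in each row, filled points for 1 animal, open squares for the pool of 3, and a star on the 4 genes that passed for endoglin siRNA. Ratios of mitotic genes lie at or above 0 with endoglin siRNA except Aurkb at -0.0045 in the pool, and 12 of 14 lie below 0 in the untreated pool.

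In untreated cells against control siRNA, 0 of the 37 genes passed by limma, where 0.701% of all genes did. At an unadjusted p under 0.05 there were 6 of 37, where 13.6% of all genes stood there. The median log2 ratio was -0.02 for replication, -0.04 for mitotic and -0.02 for G1 genes, against 0.00 for all genes. Ratios were above 0 on both untreated arrays for 7 of 37 genes, where 29.7% of all genes were, and below 0 on both for 12, where 31.9% were. Ccnd1 had the largest ratio, 0.40 ± 0.08 (SE, adjusted p = 0.0773), and its second probe read 0.57 in 1 animal and 0.37 in the pool. Plk1 had -0.06 in 1 animal and -0.59 in the pool, and Cdk1 had -0.05 and -0.47, so the 2 arrays of untreated cells differed widely for both. In untreated cells 5 of 11 macrophage markers rose, where 0.431% of all genes did, among them C1qa at 1.16 ± 0.08 (adjusted p = 0.0067). The part of that in the untreated ratios was not tested.

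With endoglin siRNA against untreated cells, 0 of the 37 genes passed by limma, where 0.0862% of all genes did (0.0353% higher and 0.0509% lower). At an unadjusted p under 0.05 there were 14, of which 13 were higher, where 8.22% of all genes stood there. Both endoglin siRNA ratios lay above both untreated ratios for 20 of 37 genes, where 24.4% of all genes did: 8 of 15 replication, 10 of 14 mitotic and 2 of 8 G1 genes. They lay below for 1 gene, Ccnd1, where 11.6% of all genes did. The median difference was 0.23 for replication, 0.30 for mitotic and 0.06 for G1 genes, against 0.02 for all genes. The mitotic median was 0.18 without the untreated array of the pool, 0.49 without that of 1 animal, and 0.19 without the single-animal endoglin siRNA array. This comparison sets 2 ratios to control siRNA against each other, so it shares the control channels with both comparisons above.

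Cdk1 had the largest positive difference, 0.54 ± 0.14 (SE, adjusted p = 0.324), followed by Plk1 with 0.50 ± 0.17 (adjusted p = 0.458). The untreated pool had the lowest of the 4 ratios for both. Cdk2 differed by 0.38 ± 0.08 (adjusted p = 0.24) on its brighter probe and by 0.11 on its dimmer one. Tyms differed by 0.35 ± 0.08 (adjusted p = 0.282), with close replicates in both conditions. Ccnd1 was the only gene of the 37 with a difference of that size below 0, at -0.52 ± 0.11 (adjusted p = 0.236). Between the single-animal arrays the median difference, endoglin siRNA minus untreated, was 0.28 for mitotic and 0.17 for replication genes, against -0.0023 for all genes. Between the pooled arrays it was 0.35 for mitotic and 0.31 for replication genes, against 0.04 for all genes. Of the 14 mitotic genes 13 were higher with endoglin siRNA in both sources, as were 10 of 15 replication genes and 37.3% of all genes. Of the 11 macrophage markers 1, C1qa, fell in this comparison, by 1.09 on the log2 scale (adjusted p = 0.039).

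Replication and mitotic genes exchanged order between the RNA sources. With endoglin siRNA the median log2 ratio in 1 animal was 0.15 for replication and 0.36 for mitotic genes, a difference of -0.21, while in the pool it was 0.24 and 0.16, a difference of 0.08. In untreated cells the medians in 1 animal were -0.01 and 0.08, a difference of -0.10, and in the pool -0.01 and -0.16, a difference of 0.15. The mitotic ratio was higher in 1 animal than in the pool for 13 of 14 genes with endoglin siRNA, where 45.2% of all genes were, and for 12 of 14 in untreated cells, where 62.9% were. For replication genes it was higher in 3 of 15 with endoglin siRNA and 8 of 15 in untreated cells. With 1 array a source in each condition this has no test. Ratios of all genes were narrower on the pooled endoglin siRNA array, with quartiles of -0.01 and 0.08. On the single-animal endoglin siRNA array the quartiles were -0.10 and 0.15. Over both sources replication minus mitotic was -0.09 with endoglin siRNA and 0.04 with scaling between arrays.

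**Figure D4:**
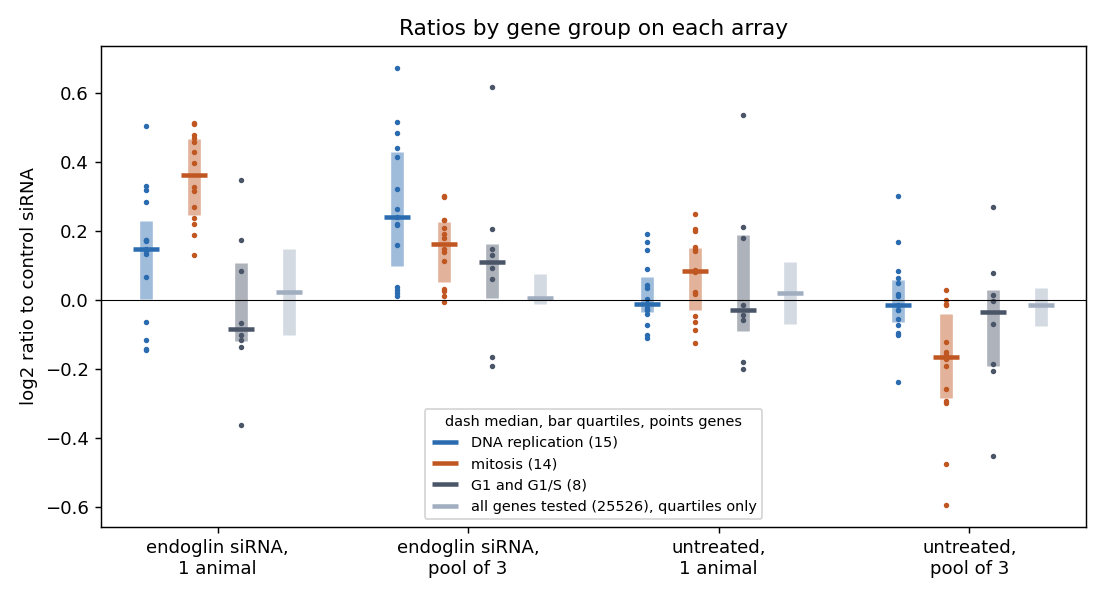
Log2 ratio to control siRNA on each of the 4 arrays for replication, mitotic and G1 genes, with points for genes, dashes for medians and bars for quartiles, and quartiles of all 25526 genes beside them. The mitotic median is 0.36 and 0.16 on the endoglin siRNA arrays, against 0.08 and -0.16 on the untreated arrays.

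Other genes of the same pathways were also tested with endoglin siRNA. The counts stand beside the 5.25% of all genes that rose and the 2.86% that fell. In the wider replication list 4 of 36 genes rose and 0 fell, with a median log2 ratio of 0.13: Dut, which removes dUTP (0.52), the polymerase delta subunits Pold1 (0.44) and Pold3 (0.28), and the clamp loader subunit Rfc3 (0.32). In the wider mitotic list 3 of 50 rose and 0 fell, with a median of 0.19: the Cdk-binding protein Cks2 (0.69), the chromatin protein Hmgb2 (0.35) and the checkpoint protein Mad2l1 (0.28). The mitotic count, 3 of 50, is near the share of all genes. In untreated cells Dut had 0.40 (adjusted p = 0.0588) and Cks2 0.39 (adjusted p = 0.205).

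Among 31 inhibitors of cyclin-dependent kinases, pocket proteins, E2F factors and related regulators, 4 rose and 1 fell, with a median of 0.10, where 5.25% of all genes rose and 2.86% fell. The list holds many inhibitors of the cycle. The genes that rose were Rbl2, the pocket protein p130 of resting cells (0.56), the Cdk inhibitor p27, Cdkn1b (0.45), and the kinases Wee1 (0.51) and Pkmyt1 (0.56), which hold Cdk1 inactive. The one that fell was Cdkn2b, the Cdk4 inhibitor p15 and known as a TGF-beta target in human keratinocytes, by 0.40. Rbl2 had the closest replicates, 0.56 and 0.56 with endoglin siRNA, against 0.22 and 0.11 in untreated cells. None of the 3 wider lists had a gene that passed in the other comparisons. The largest there were Dut and Rpa3, Tubb4b (0.61) and Cks2, and Btg1 and Ccnh in untreated cells against control siRNA, and Rpa2 and Rfc2, Ect2 (0.53) and Stmn1, and Btg2 (0.69) and Cdkn3 for endoglin siRNA against untreated cells.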

How the data were processed

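Per the file headers, signals of the Agilent 4x44K arrays were extracted by the authors with version 9.5.1.1 of Agilent's software. The deposited scanner files hold mean and background intensity values on a linear scale and log10 ratios, red over green. A value table that the authors deposited also holds log10 ratios; they correlated with the scanner's at 1 for endoglin siRNA and at -1 for untreated cells, for a reason the sources used here do not state. All 4 arrays were on 1 slide and in 1 scan.

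Intensities were corrected with normexp (offset 50) and normalized by loess within each array. Of 41012 gene probes 29860 were kept, and the brightest stood for each of 25526 genes. Ratios on all 4 arrays were fitted with limma 3.58.1 in R 4.3.3 as 2 group means, with Benjamini-Hochberg adjustment over all genes at 0.05; errors are the moderated SE. The design leaves 2 residual and 5.25 prior degrees of freedom. The fit was run on simulated data with 200 changed genes and independent noise. The simulation held no dye effect, RNA source effect or shared control RNA, so it does not show how the fit handles them. Where arrays shared a control RNA, p-values leave out its own spread, and without a dye swap a dye effect stays in each ratio. Levels per channel come from quantile scaling of the average intensity between arrays (Aquantile). The number of arrays limits the precision.

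The members and lists were chosen with earlier results of these data known. Text names all members, and from each wider list the genes that passed (at most 4 a direction) or else the 2 largest. Pathway lists held 42, 54 and 37 genes, cell type marker lists 13 stellate, 13 macrophage, 10 endothelial, 11 hepatocyte and 6 cholangiocyte genes.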

Additional observations from a re-analysis of the deposited data

Results flagged for a closer look

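For mitotic genes the median log2 ratio of untreated cells to control siRNA was 0.08 in 1 animal and -0.16 in the pool, opposite in sign, a difference of 0.25. For G1 genes the median ratio of endoglin siRNA to control siRNA was -0.08 in 1 animal and 0.11 in the pool, also opposite in sign, a difference of -0.20. With 1 array a source in each condition, neither difference was tested.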

How the results depend on the processing

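For endoglin siRNA against control siRNA, 4 of the 37 genes passed as reported, and 0 of them fell. Without background correction 10 passed (9 higher, 1 lower), where 17.6% of all genes did, and 9 did with normexp fitted without 10 disturbed spots of the pooled arrays (8 higher, 1 lower), where 16.3% of all genes passed. With scaling between arrays, median centring, the authors' value table or the Feature Extraction log ratios 0 passed, and 0 of all genes did. Leaving out 1 array at a time gave 2 to 5: 2 without either untreated array (Lig1 and E2f1; 4.55% of all genes), 5 without the endoglin siRNA array of 1 animal (3.46%) and 3 without that of the pool (10.5%, above the genes' own share). With the RNA source as a replicate block 16 passed, all higher (7 replication, 8 mitotic, 1 G1), where 15.3% of all genes did; the arrays' deviations correlated at 0.293 over only 2 pairs, so the pairing is not established. Over these settings the log2 ratio ran from 0.28 to 1.47 for Pcna, 0.29 to 1.06 for Tyms, 0.33 to 1.40 for Lig1 and 0.21 to 1.26 for E2f1, the highest adjusted p being 0.436. For untreated cells 1 gene (Ccnd1, higher) passed with the block and without either endoglin siRNA array, so the range over arrays left out was 0 to 1. For endoglin siRNA against untreated cells 1 (Ccnd1, lower) passed with the block.

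Median centring moved the median of all genes to 0.32 for endoglin siRNA against control siRNA, with medians of 0.85 for replication and 1.00 for mitotic genes. The replication median was 0.29 with the Feature Extraction ratios and the value table and 0.41 with scaling between arrays. For untreated cells the replication median was -0.0031 without background correction, 0.0055 without disturbed spots, -0.0156 with Feature Extraction and table ratios, 0.046 with median centring, -0.0050 with scaling, -0.0072 over all probes and -0.0183 to -0.0123 with an array left out. For endoglin siRNA against untreated cells it was 0.80, 0.47 and 0.13 with median centring, scaling and all probes, and 0.12 to 0.27 with an array left out, lowest without the pooled endoglin siRNA array; the mitotic median was 0.86 with median centring. Replication minus mitotic turned sign with scaling between arrays, to 0.0396 against control siRNA (-0.0903 as reported) and 0.0174 against untreated cells (-0.0721). It was -0.21 to 0.077 with an endoglin siRNA array left out, lowest without the pooled one, and for endoglin siRNA against untreated cells -0.33 to 0.081 with an array left out, lowest without the pooled endoglin siRNA array. The cause of these shifts was not tested. In 2 scalings chosen after seeing the data, the mitotic difference between 1 animal and the pool was 1.75 and 1.91 in place of 1.57, with 11 of 14 genes at least 2-fold higher in each. Adding Aurka and Gins2 left 4 genes passing.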

Other observations

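With endoglin siRNA against control siRNA, where 5.25% of all genes rose and 2.86% fell, 1 of 7 sinusoidal endothelial markers rose (Kdr), 1 of 9 hepatocyte markers rose (Cyp2e1) and 2 of 3 cholangiocyte markers fell (Sox9 and Spp1). Of 12 stellate cell markers 3 rose and 2 fell, and 1 of 11 macrophage markers rose (Cd14). Spp1, osteopontin, rose in untreated cells against control siRNA, where 0.431% of all genes rose, and fell with endoglin siRNA against untreated cells, where 0.0509% fell.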
